A study of Mus musculus with 53 samples.

Results

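Wild-type (WT) mouse embryonic fibroblasts that received an siRNA against H2A.Z were compared with WT fibroblasts that received a control siRNA. The labels call these groups WT_H2AZ_siRNA and WT_NT_siRNA, with 3 libraries each. Of 43432 entries in the deposited expression table, the 12668 that reached 1 RPKM or more in at least 3 of its 12 columns were described and tested. The entry just inside that limit, Hmgb1-ps8, had a third-highest value of 1.00 RPKM, and the entry just outside, Gm26549, had 0.9997 RPKM. The other 6 columns hold the same siRNA treatments in fibroblasts labelled as ANP32E knockout (KO). They count towards that limit and share the fit, so every WT call also rests on their spread. Their own responses enter only the last comparison. The whole series holds 53 samples. Total RNA was made into libraries with a kit that keeps strand, and read in pairs. The sources used here do not give strain, sex, embryo age, siRNA sequence, dose or time after transfection, nor the knockout allele. Whether the libraries of a group came from separate cultures is not stated beyond the word biological in most of their titles, so p-values measure only the spread between these samples.

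H2A.Z is a variant of the core histone H2A that is built into nucleosomes on either side of many transcription start sites and at enhancers. The SRCAP and TIP60/p400 complexes exchange it into chromatin, and the chaperone ANP32E takes it out. H2afz and H2afv encode its closely related isoforms. In fibroblasts and other cultured cells H2A.Z has been tied both to gene activation and to gene repression, among them repression of Cdkn1a, the p53 target that halts the cell cycle.

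Depth and likeness of the 6 WT libraries come first, since one of them stands apart. Reads recovered from the RPKM values summed to between 31928320 and 42543331 per library with H2AZ siRNA and between 38133785 and 44311178 with NT siRNA. One read in a gene of 1 kb was worth 0.0226 to 0.0313 RPKM. RNA of the signal recognition particle (7SL) took 14.1 to 16.3% of reads in these libraries, with overlap between the groups. Replicates of a group correlated across genes at 0.9948 to 0.9963, where genes are not independent replicates. The first principal component of the 6 libraries held 46.8% of their variance and separated the siRNA groups. WT NT siRNA replicate 1 lay at −14.8 on it and at 11.5 on the next component, while the other WT NT siRNA libraries lay at −8.56 and −9.69, and at −6.80 and −8.10. The groups of genes in which that library decides a call or a count are given with the value without it.

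Fibroblast identity was checked by markers. The list of fibroblast and mesenchymal markers had 12 of 14 genes tested, and none was called, with a median log2 fold change of −0.02 against −0.03 for all tested genes. Vim, the intermediate filament gene of mesenchymal cells, lay between 655 and 675 RPKM with H2AZ siRNA and between 652 and 725 RPKM with NT siRNA. The leukocyte gene Ptprc, the endothelial gene Pecam1 and the muscle regulators Myod1 and Myf5 were at 0 or at no more than 0.00842 RPKM in all 6 WT libraries. In bulk RNA, fewer cells of a type and less RNA per cell cannot be told apart.

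Both H2A.Z genes fell with the siRNA. H2afz (ENSMUSG00000037894, chr3:137864487-137866922 in mm10) stood at 17.5, 16.6 and 17.4 RPKM in WT H2AZ siRNA libraries and 203, 199 and 203 RPKM in WT NT siRNA libraries. All 3 libraries with H2AZ siRNA lay far below all 3 with NT siRNA. The limma log2 fold change on log2(RPKM + 1) was −3.48 ± 0.05 (adjusted p = 7e-12), and 8.53% of the NT siRNA mean was left. H2afv (ENSMUSG00000041126, chr11:6427226-6444511) had 1.63, 1.45 and 1.63 RPKM with H2AZ siRNA, against 19.0, 15.5 and 17.1 RPKM with NT siRNA. These groups did not overlap either, with a log2 fold change of −2.82 ± 0.12 (adjusted p = 8.4e-08) and 9.12% of the mean left. On this scale, which adds 1 RPKM to every value, the change of a low gene is understated. A pair of predicted entries moved with them. Gm8203, annotated as a pseudogene at chr6:116173632-116174497, went to 18.3, 18.2 and 21.6 RPKM with H2AZ siRNA, against 226, 216 and 224 RPKM with NT siRNA. Gm26623 had 1.83, 1.51 and 1.92 RPKM with H2AZ siRNA, against 19.9, 20.1 and 19.96 RPKM with NT siRNA. Whether these entries share reads with H2afz was not tested, and the handling of reads that match several places is not given in the sources used here.

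**Figure D1:**
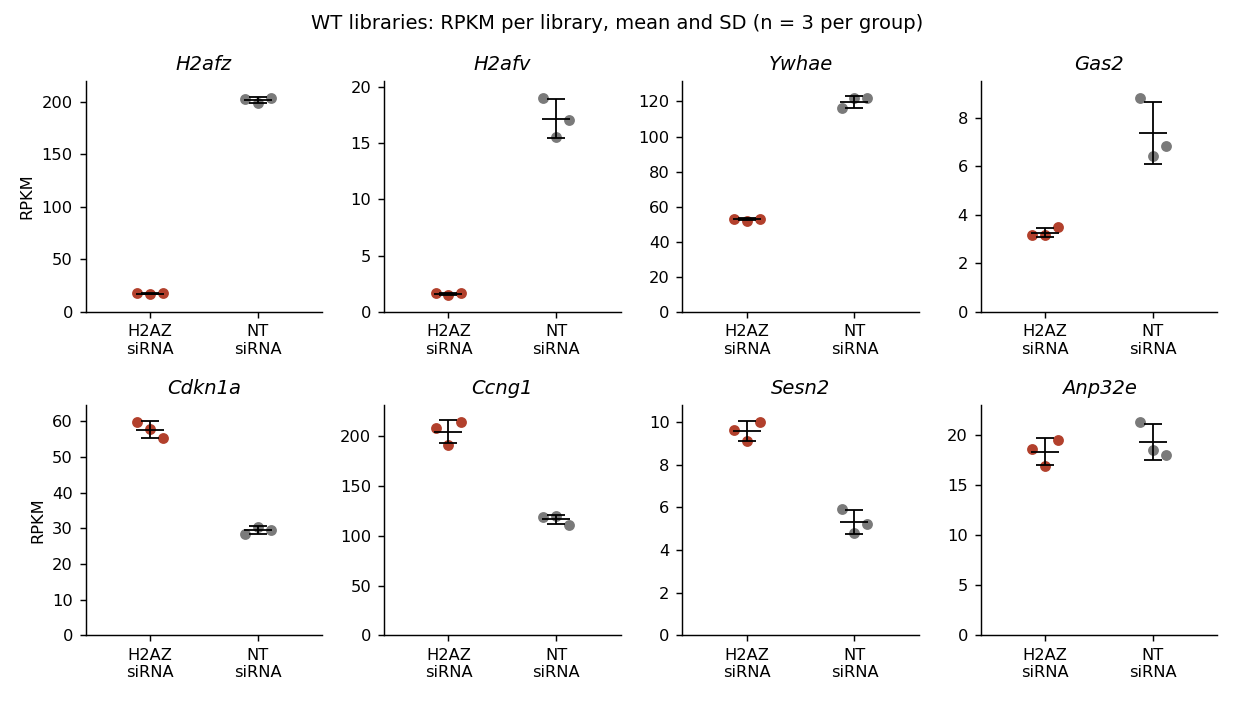
RPKM (y axis, from 0) of 8 genes in each WT library, H2AZ siRNA left and NT siRNA right, with points for libraries and bars for the mean and SD (n = 3 per group). H2afz, H2afv, Ywhae and Gas2 are lower and Cdkn1a, Ccng1 and Sesn2 higher with H2AZ siRNA without overlap, while the groups of Anp32e overlap.

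Transcripts of the proteins that place or remove H2A.Z were called at about the share of all genes. Anp32e (chr3:95929245-95947387) stood at 18.7, 16.9 and 19.6 RPKM in WT H2AZ siRNA libraries and 21.4, 18.6 and 18.1 RPKM in WT NT siRNA libraries, with overlapping groups and a log2 fold change of −0.07 ± 0.11 (limma adjusted p = 0.73). Of 25 tested genes for H2A.Z deposition and removal, none rose and 3 fell (12% against 10.4% of all genes). They were Ruvbl1 (−0.28), an ATPase shared by the exchange complexes, Dmap1 (−0.22), a further shared subunit, and Znhit1 (−0.23), a subunit of SRCAP. None of these 3 calls held when every library was centred on its median, which gave 1 rise and no fall in the list. The Znhit1 call also ended without WT H2AZ siRNA replicate 1 or 2 or WT NT siRNA replicate 2. Srcap, Ep400 and Ino80, the large ATPase subunits, were not called. Among 18 other histone chaperones, 3 fell and none rose (16.7% lower against 10.4% of all genes, and 0 higher against 4.88%). Asf1b, which hands histones H3 and H4 to newly made DNA, had 9.55, 8.47 and 8.64 RPKM with H2AZ siRNA, against 13.3, 13.9 and 13.8 RPKM with NT siRNA. Each H2AZ siRNA library lay below each NT siRNA library, by −0.57 ± 0.05 (adjusted p = 7.9e-05). Spty2d1, a histone H3 and H4 chaperone, fell by a log2 fold change of −0.32 and Daxx, which loads histone H3.3, by −0.21, a call that ended without WT H2AZ siRNA replicate 1 or 3 or WT NT siRNA replicate 1, 2 or 3. Of the other histone variants, H2afy2, a macroH2A gene, fell by −0.35, and H2afj rose by 0.26. Their calls ended without WT H2AZ siRNA replicate 2 and without WT H2AZ siRNA replicate 1, 2 or 3 or WT NT siRNA replicate 1 or 3 in that order.

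Beyond the targets the response was wide and shallow. Of the 12668 genes, 618 were higher with H2AZ siRNA (4.88%) and 1315 were lower (10.4%), 15.3% in all, at a limma adjusted p under 0.05. Libraries of the groups did not overlap for 1730 genes that were higher (13.7%) and 3080 that were lower (24.3%). The genes called higher had a median log2 fold change of 0.27 and those called lower of −0.30, with a median standard error of 0.07 over all genes. None was higher by 2-fold or more, and 6 were lower by that much, among them H2afz, Gm8203, Gm26623, H2afv and Ywhae. At 1.5-fold or more the counts were 29 higher and 67 lower. For the reads recovered from the table, limma-voom called 11 genes higher and 35 lower by 2-fold or more.

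How the calls divide between higher and lower depends on the scaling. With the deposited scaling 32.0% of the calls were higher. After centring each library on its median, 1306 were higher and 878 lower, so that 59.8% were higher. The median log2 fold change of all genes was 0.02 after centring, against −0.03 before it. With median-ratio totals on the recovered reads the counts were 1135 and 1285, and 46.9% of the calls were higher. No gene called under the deposited scaling was called in the opposite direction under those. Gene-list counts given under either of these scalings are to be set against its own totals, not against 4.88% and 10.4%. Called the same way under all 4 other scalings and count tests were 554 of the 618 higher genes and 823 of the 1315 lower ones. Leaving out 1 WT library moved the number higher to between 329 and 511 and the number lower to between 778 and 1048. Without WT NT siRNA replicate 1 it was 511 higher and 972 lower. Of the calls above, 278 higher and 634 lower ones were made without each of the 6 WT libraries in turn. The number higher was 347 without WT H2AZ siRNA replicate 1, 329 without WT H2AZ siRNA replicate 3 and 406 without WT NT siRNA replicate 3. The number lower was 778, 865 and 876 without WT H2AZ siRNA replicate 1, 2 and 3.

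**Figure D2:**
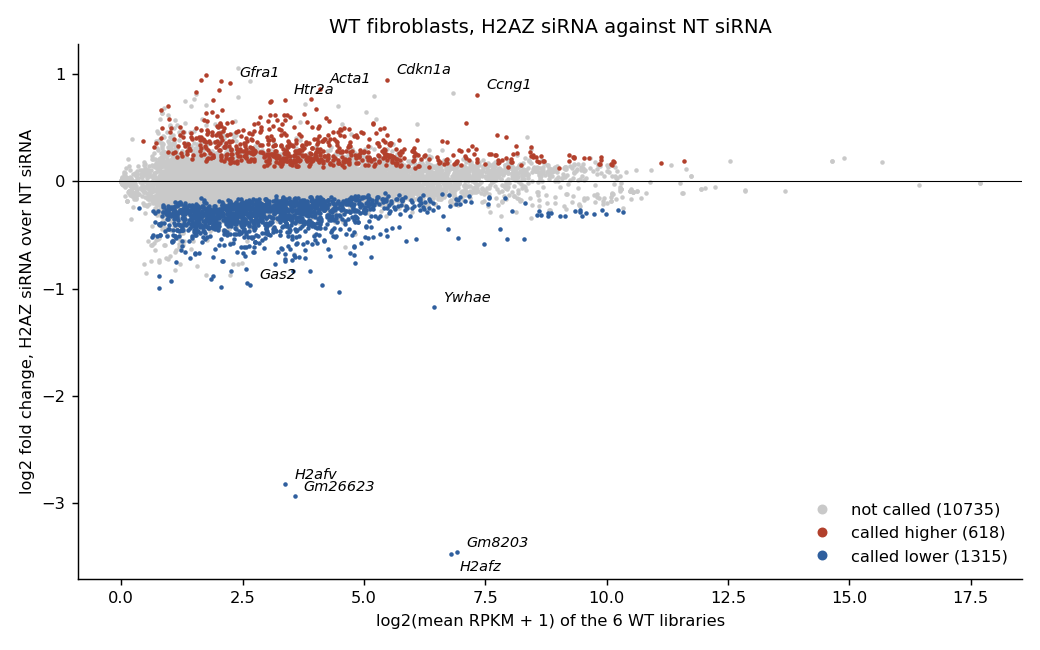
Log2 fold change of WT H2AZ siRNA over WT NT siRNA (y axis) against log2(mean RPKM + 1) of the 6 WT libraries (x axis) for all 12668 tested genes, with called genes in red (higher) and blue (lower). The 4 lowest points are H2afz, Gm8203, Gm26623 and H2afv, and nearly all others lie within 1 log2 unit of 0.

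Among gene lists with 10 or more tested members, the p53 targets had the highest share of rises. The transcription factor p53 is stabilised by DNA damage and other stress, and its targets halt the cell cycle, repair DNA, limit growth and promote cell death. Of 32 tested targets 19 rose and 1 fell, so that 59.4% were called higher against 4.88% of all genes, and the list's median log2 fold change was 0.40. Of the 19 rises, 17 were called without each WT library in turn, and between 17 and 21 genes of the list were called higher in those fits. Ddb2 and Gdf15 did not reach the limit for testing. The summed level of the list was 823, 784 and 833 RPKM with H2AZ siRNA and 611, 589.9 and 570.4 RPKM with NT siRNA, without overlap.

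Cdkn1a (ENSMUSG00000023067, chr17:29090979-29100722), which encodes the cyclin-dependent kinase inhibitor p21, had 59.9, 58.0 and 55.2 RPKM with H2AZ siRNA, against 28.3, 30.5 and 29.5 RPKM with NT siRNA. The lowest H2AZ siRNA library was well above the highest NT siRNA library. Its log2 fold change was 0.95 ± 0.05 (limma adjusted p = 3.1e-06), the largest rise among the named genes. The stretch before its upstream start is shown, from the RefSeq promoter table (GRCm38.p6, the build also called mm10). It holds a match to the p53 consensus, which is in capitals. The window of the other RefSeq start of Cdkn1a, chr17:29093519-29093818, came no closer to that consensus than 5 mismatches. The stretch shown lies at chr17:29090729-29090978 on the plus strand.
Cdkn1a: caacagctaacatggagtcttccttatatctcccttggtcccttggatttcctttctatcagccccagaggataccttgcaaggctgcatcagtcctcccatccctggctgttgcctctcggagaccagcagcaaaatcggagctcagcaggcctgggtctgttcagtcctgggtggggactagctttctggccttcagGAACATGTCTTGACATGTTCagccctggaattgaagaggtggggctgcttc

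The p53 consensus (20 bases, searched on both strands with at most 1 mismatch in windows from 250 bases before to 50 after each RefSeq start) was found for 29 of 27025 genes, or 0.107%. Among the tested genes 8505 had a window and 6 held a match. Of those, Cdkn1a, Ccng1, Gtse1 and Rps27l were called higher, and Calhm2 and Mthfd1 were not called. That is 4 of 435 genes called higher that had a window, or 0.92%, and 0 of 1033 called lower. A match is a description of letters and not of binding. The sites of the 3 other called genes, each read on the gene's own strand, are given to show how they vary. They lie at chr11:40755462-40755481, chr15:85859945-85859964 and chr9:66946296-66946315 in the order printed.
Ccng1: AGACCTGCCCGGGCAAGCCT
Gtse1: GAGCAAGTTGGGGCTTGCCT
Rps27l: GGGCTTGTTGAGACTTGTCC

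Ccng1, whose cyclin G1 protein acts in a feedback on p53, had 208, 191 and 214 RPKM with H2AZ siRNA, against 118, 119.7 and 111 RPKM with NT siRNA. No library of one group reached the other (log2 fold change 0.81 ± 0.09, limma adjusted p = 0.00036). Sesn2, a stress sensor that restrains growth signalling through mTORC1, had 9.61, 9.08 and 10.004 RPKM with H2AZ siRNA, against 5.90, 4.81 and 5.20 RPKM with NT siRNA, again without overlap (0.75 ± 0.08, adjusted p = 0.00016). Gtse1, a mitotic protein that binds p53, averaged 27.2 ± 0.684 RPKM with H2AZ siRNA and 18.9 ± 0.760 RPKM with NT siRNA (SD, n = 3 each), a rise of 0.50. Rps27l, a ribosomal protein paralog induced by p53, averaged 212 ± 11.5 RPKM with H2AZ siRNA and 178 ± 11.4 RPKM with NT siRNA (SD, n = 3 each), and its rise of 0.26 ended without WT H2AZ siRNA replicate 1 or WT NT siRNA replicate 1 or 2. The last 2 genes were chosen for their promoter match after their values were seen.

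Other rises in the list of p53 targets were smaller. Among death genes, Bax had 116, 116 and 118 RPKM with H2AZ siRNA, against 86.9, 94.0 and 88.9 RPKM with NT siRNA, and its log2 fold change was 0.37. Its groups were clear of each other. Perp rose by 0.51, Aen, a nuclease gene, by 0.44, Pidd1 by 0.45, the death receptor gene Tnfrsf10b by 0.34 and Bbc3, which encodes the BH3-only protein PUMA, by 0.29. Eda2r, a receptor of the tumour necrosis factor family, rose by 0.60. Fas rose by 0.42, a call that ended without WT H2AZ siRNA replicate 3 or WT NT siRNA replicate 2. Among repair genes, Ercc5, a nuclease of nucleotide excision repair, had 6.96, 6.79 and 6.87 RPKM with H2AZ siRNA, against 4.76, 4.21 and 4.31 RPKM with NT siRNA (log2 fold change 0.54 ± 0.06). Polk, a polymerase that copies past damaged bases, rose by 0.53. Phlda3, an inhibitor of AKT, rose by 0.49, and Zmat3, an RNA-binding p53 target, by 0.45. Mdm2, which marks p53 for destruction, had 22.1, 19.6 and 21.9 RPKM with H2AZ siRNA, against 17.1, 12.2 and 12.5 RPKM with NT siRNA, a rise of 0.59 ± 0.16 (adjusted p = 0.032) that ended without WT H2AZ siRNA replicate 1, 2 or 3 or WT NT siRNA replicate 2 or 3. Trp53 itself stood at 18.2, 18.2 and 19.3 RPKM in WT H2AZ siRNA libraries and 15.05, 17.5 and 16.4 RPKM in WT NT siRNA libraries. Its libraries did not overlap, but the log2 fold change of 0.18 ± 0.06 did not pass (adjusted p = 0.054). Sesn1 was the 1 member that fell, by −0.24, and that call ended under median centring (adjusted p = 0.055) and without WT H2AZ siRNA replicate 1, 2 or 3 or WT NT siRNA replicate 1 or 2. Pmaip1, Gadd45a, Btg2, Plk2, Rrm2b, Xpc, Tigar, Apaf1, Ddit4, Plk3, Ckap2 and Trp53inp1 were not called.

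**Figure D3:**
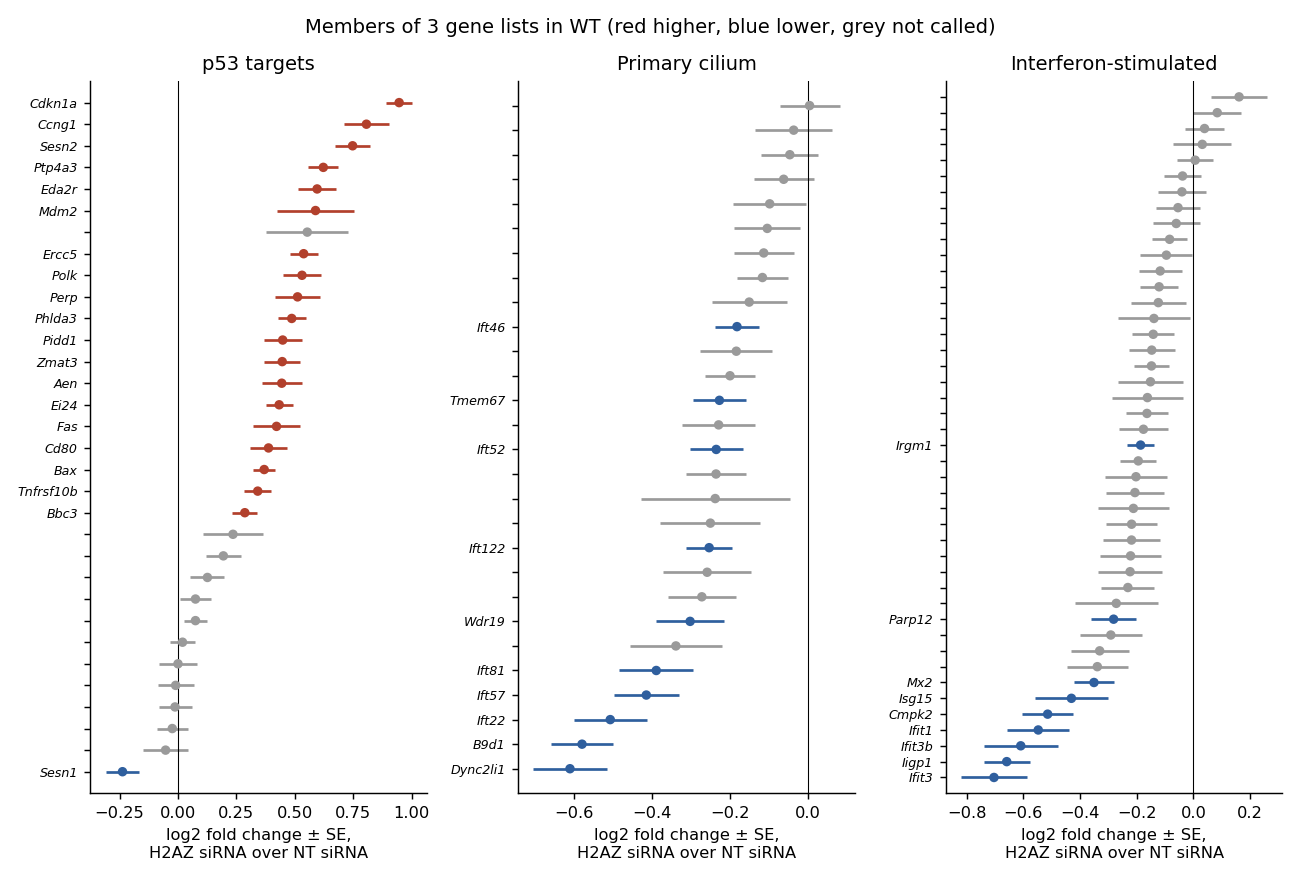
Log2 fold change ± standard error (x axis) of every tested member of 3 gene lists in WT, H2AZ siRNA over NT siRNA, with red for called higher, blue for called lower and grey for not called, and names beside the called members. Of the p53 targets 19 of 32 are red, and the primary cilium and interferon lists hold blue and grey points only, with 10 of 28 and 9 of 44 called lower.

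Other brakes on the cell cycle moved both ways. Of 21 tested brakes, D cyclins and Rb family genes, 2 rose and 4 fell (9.52% against 4.88% of all genes, and 19.0% against 10.4%). That balance turned with the scaling: 4 rose and 1 fell under median centring, 4 rose and 3 fell with median-ratio totals, and 3 rose and 2 fell without both NT siRNA libraries numbered 1. Cdkn1b, the gene of the inhibitor p27, had 11.1, 11.5 and 11.95 RPKM with H2AZ siRNA, against 17.1, 14.9 and 14.6 RPKM with NT siRNA, a fall of −0.40 ± 0.08 (limma adjusted p = 0.0053) with no overlap. Cdkn2a, the locus of p16 and ARF, stood at 189.9, 192 and 198 RPKM in WT H2AZ siRNA libraries and 201, 177 and 177 RPKM in WT NT siRNA libraries, and its groups overlapped (adjusted p = 0.48). Btg1, an antiproliferative gene, rose by 0.21, while Rbl2, a relative of Rb, fell by −0.25, Cdkn2d by −0.23 and Ccnd3 by −0.20. Each of these last 4 calls was lost in a fit without 1 of the WT libraries: Btg1 without WT H2AZ siRNA replicate 1, 2 or 3 or WT NT siRNA replicate 2 or 3; Rbl2 without WT H2AZ siRNA replicate 1, 2 or 3 or WT NT siRNA replicate 1 or 2; Cdkn2d without WT H2AZ siRNA replicate 1 or 2 or WT NT siRNA replicate 1 or 2; and Ccnd3 without WT H2AZ siRNA replicate 1 or 2 or WT NT siRNA replicate 3.

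Ywhae showed the largest fall of any named gene outside the H2A.Z genes and the predicted entries. It encodes an adapter of a family that binds phosphorylated proteins, among them cell-cycle phosphatases (chr11:75732887-75765841). It had 52.8, 52.1 and 53.2 RPKM with H2AZ siRNA, against 116, 122 and 122 RPKM with NT siRNA. The libraries of each group lay within a few RPKM of one another and far from the other group, with a log2 fold change of −1.17 ± 0.05 (limma adjusted p = 5.8e-08). Ccn5, a secreted matrix-associated protein, had 9.71, 11.2 and 11.3 RPKM with H2AZ siRNA, against 26.6, 18.5 and 21.6 RPKM with NT siRNA (−0.97 ± 0.15). Gas2, an actin and microtubule linker first found in growth-arrested cells, had 3.15, 3.17 and 3.48 RPKM with H2AZ siRNA, against 8.82, 6.44 and 6.86 RPKM with NT siRNA (−0.96 ± 0.12). In both genes WT NT siRNA replicate 1 was the highest library, and leaving out any WT library kept the call. Fem1b, a substrate receptor of an E3 ubiquitin ligase, had 8.96, 10.01 and 10.1 RPKM with H2AZ siRNA, against 18.6, 18.4 and 17.0 RPKM with NT siRNA (−0.83 ± 0.07). Pbrm1, a bromodomain subunit of the PBAF remodelling complex, had 7.53, 7.29 and 7.86 RPKM with H2AZ siRNA, against 14.9, 12.8 and 12.2 RPKM with NT siRNA (−0.74 ± 0.10). Dazap1, an RNA-binding splicing regulator, had 19.3, 20.9 and 19.9 RPKM with H2AZ siRNA, against 34.7, 34.5 and 34.9 RPKM with NT siRNA (−0.76 ± 0.05). Scara3 (−0.95), a scavenger receptor family gene, Fam92a (−0.84), a membrane-bending protein of the cilium base, S100a16 (−0.84), a calcium-binding protein, C1qtnf12 (−0.75), a secreted C1q-related factor, and Gpalpp1 (−0.82) were also among the largest falls. None of these falls lost its call under centring or without any 1 WT library. Whether any of them comes from the siRNA's own sequence rather than from the loss of H2A.Z was not tested, since only 1 H2A.Z treatment is labelled and its sequence is not given in the sources used here.

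The largest rises were smaller and of mixed kind. Gfra1, the receptor for the growth factor GDNF, had 4.79, 5.12 and 5.71 RPKM with H2AZ siRNA, against 2.38, 2.14 and 2.32 RPKM with NT siRNA (0.92 ± 0.08, limma adjusted p = 7.8e-05). Acta1, skeletal muscle actin, had 20.7, 21.7 and 20.8 RPKM with H2AZ siRNA, against 9.78, 12.6 and 11.2 RPKM with NT siRNA (0.86 ± 0.11). The groups of both genes were far apart. Acta1 was the only 1 of 17 skeletal muscle markers that was tested, and the muscle transcription factor genes Myod1 and Myf5 were at 0 in all 6 libraries. Mmp3, a secreted matrix protease, had 16.3, 18.5 and 19.16 RPKM with H2AZ siRNA, against 12.6, 8.76 and 9.39 RPKM with NT siRNA (0.77 ± 0.13). Htr2a, a serotonin receptor, had 11.7, 11.3 and 13.1 RPKM with H2AZ siRNA, against 7.10, 6.94 and 6.02 RPKM with NT siRNA (0.76 ± 0.08). Blcap (0.62), Dglucy (0.74), Dcxr (0.68), a sugar reductase, and Amacr (0.62), an enzyme of branched fatty acid breakdown, rose as well. So did Ptp4a3 (0.62), a phosphatase also among the p53 targets, and Ddias (0.63), a DNA damage-linked suppressor of apoptosis. Mt1, a metallothionein that binds zinc and copper, had 161, 162 and 159.8 RPKM with H2AZ siRNA, against 105, 109 and 118 RPKM with NT siRNA (0.54 ± 0.04, adjusted p = 3.8e-05), and Mt2 rose by 0.49. All calls in this group held under centring and without each WT library.

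**Figure D4:**
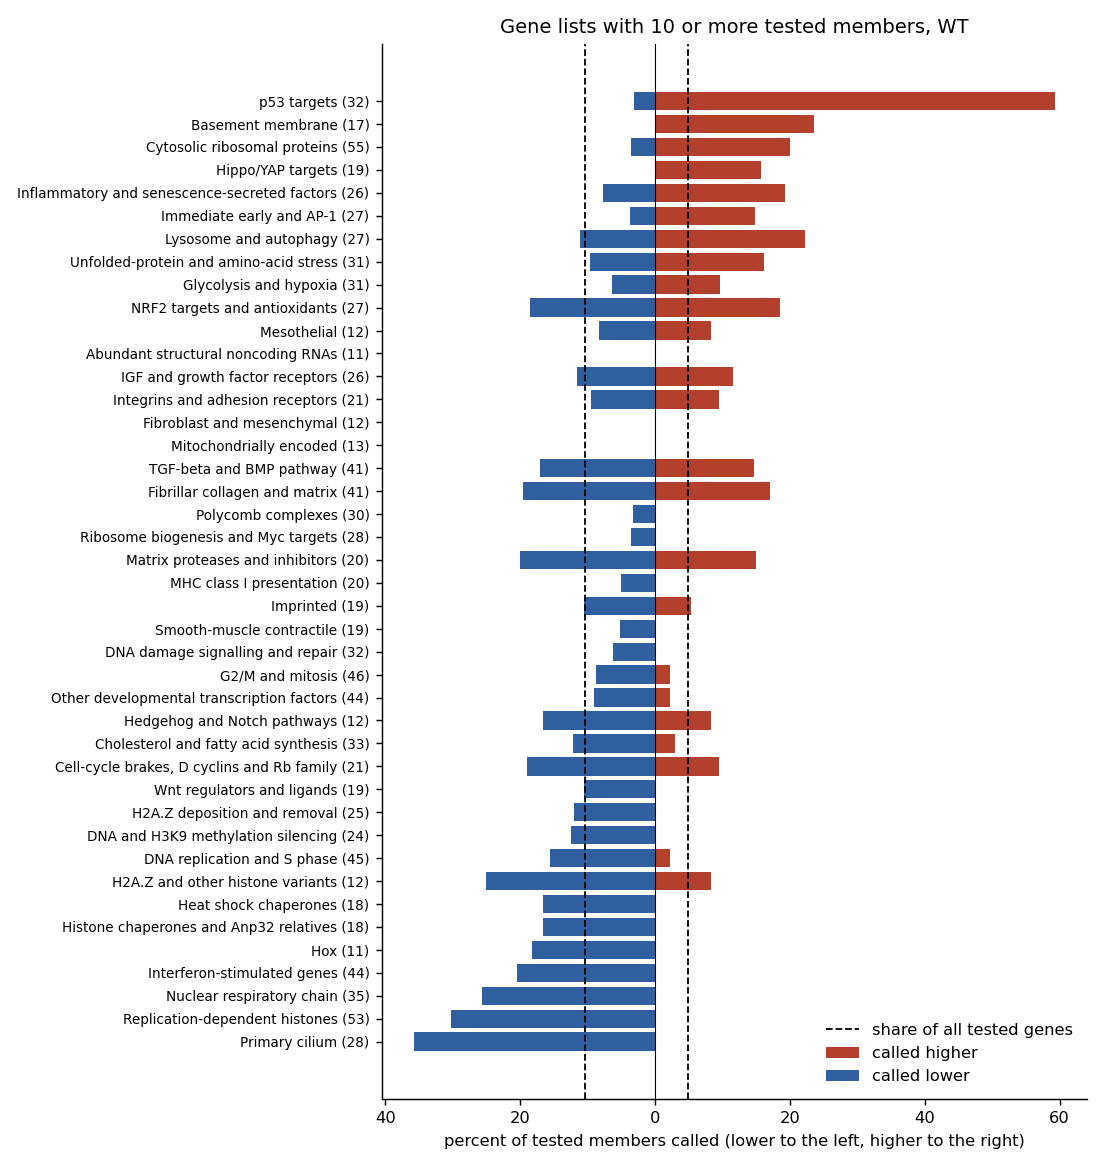
Percent of tested members called higher (right, red) and lower (left, blue) in WT for each gene list with 10 or more tested members, with dashed lines at the shares of all tested genes, 4.88% and 10.4%. The p53 targets extend farthest to the right at 59.4%, and the primary cilium and replication-dependent histone lists are among the longest to the left.

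Histone genes that are expressed in S phase had lower values as a list. Of 53 tested, 52 had a negative log2 fold change, the median was −0.20, and 16 were called lower (30.2% against 10.4% of all genes) and none higher. Hist1h1a, a linker histone gene, had 246, 266 and 254 RPKM with H2AZ siRNA, against 328, 389 and 401 RPKM with NT siRNA and fell by −0.54 ± 0.08 (limma adjusted p = 0.0013), a call made under every scaling and without each WT library. The others rest on the scaling and on single libraries. Under median centring 1 was called, with median-ratio totals 3, and the number was 1 without WT H2AZ siRNA replicate 1 or 3 or WT NT siRNA replicate 2 or 3, 3 without WT H2AZ siRNA replicate 2 and 33 without WT NT siRNA replicate 1. With both NT siRNA libraries numbered 1 left out, 43 were called. Summed RPKM was 28599, 30083 and 29141 with H2AZ siRNA, and 30472, 36344 and 35791 with NT siRNA, where replicate 1 of NT siRNA was nearest to the H2AZ siRNA libraries. Copies of these genes are nearly identical, so each one's own value is uncertain.

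Among genes of DNA replication, mitosis and repair, falls outnumbered rises, as they did over all genes (10.4% lower and 4.88% higher). In the S-phase list 1 of 45 rose and 7 fell (2.22% higher against 4.88% of all genes, and 15.6% lower against 10.4%), and 2 fell under centring. Cdc6, which loads the replicative helicase, fell by −0.22, and Orc1, a subunit of the origin recognition complex, rose by 0.33. Both calls held without each WT library, and the number of falls was 2 without WT H2AZ siRNA replicate 2 or 3 or WT NT siRNA replicate 1 and 4 without WT H2AZ siRNA replicate 1 or WT NT siRNA replicate 3. In the mitosis list 1 of 46 rose and 4 fell (2.17% against 4.88% of all genes, and 8.70% against 10.4%), and 2 fell under centring. Psrc1, a spindle protein, had 15.3, 15.7 and 16.9 RPKM with H2AZ siRNA, against 11.2, 9.83 and 10.6 RPKM with NT siRNA, a rise of 0.56 ± 0.06. Bub1b, a checkpoint kinase gene, fell by −0.21 and Racgap1, which acts in cytokinesis, by −0.18, and the number of falls in that list was 2 without WT H2AZ siRNA replicate 1, 2 or 3 or WT NT siRNA replicate 1. In the repair list 2 of 32 fell (6.25% against 10.4% of all genes) and none rose. Parp1, which senses DNA breaks, had 13.9, 14.5 and 14.2 RPKM with H2AZ siRNA, against 18.8, 18.1 and 19.0 RPKM with NT siRNA (−0.37 ± 0.05), and Rad54l fell by −0.24, a call that ended without WT H2AZ siRNA replicate 2 or WT NT siRNA replicate 2.

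Among genes that silence chromatin, Cbx1 stood out. It encodes HP1 beta, a reader of methylated histone H3 lysine 9. It had 7.92, 7.95 and 8.56 RPKM with H2AZ siRNA, against 14.8, 13.4 and 13.5 RPKM with NT siRNA, all H2AZ siRNA libraries well below all NT siRNA ones (−0.70 ± 0.07, limma adjusted p = 0.00011). In the same list 3 of 24 genes fell and none rose (12.5% lower against 10.4% of all genes, and 0 higher against 4.88%). Ehmt2, an H3K9 methyltransferase gene, fell by −0.23, and Dnmt1, the maintenance DNA methyltransferase, by −0.16, a call that ended without WT H2AZ siRNA replicate 1 and under centring. Of 30 Polycomb genes 1, Cbx6, fell by −0.27 (3.33% lower, under the share of all genes), and 2 fell without WT H2AZ siRNA replicate 3. Of 31 germline genes known to be silenced by promoter methylation, 1 reached the limit for testing, and it was not called. The imprinted list had 1 rise and 2 falls among 19 tested (5.26% and 10.5%), close to the shares of all genes. Snrpn fell by −0.51. H19, a noncoding RNA, had 81.7, 95.7 and 86.6 RPKM with H2AZ siRNA, against 142, 104 and 117 RPKM with NT siRNA (−0.45), a call that ended without WT H2AZ siRNA replicate 1 or 3 or WT NT siRNA replicate 1 or 3, and H13 rose by 0.15, a call that ended without WT H2AZ siRNA replicate 1, 2 or 3 or WT NT siRNA replicate 1, 2 or 3.

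Primary cilium genes were lower as a list. The cilium is an antenna-like projection whose transport particles carry Hedgehog receptors and other cargo. Of 28 tested genes 10 fell and none rose (35.7% against 10.4%), with a median log2 fold change of −0.23. Dync2li1, a light chain of the motor for return transport, had 3.53, 4.22 and 3.03 RPKM with H2AZ siRNA, against 6.53, 5.65 and 5.78 RPKM with NT siRNA (−0.61 ± 0.09, limma adjusted p = 0.0017). B9d1, a part of the transition zone gate, had 2.55, 2.97 and 2.87 RPKM with H2AZ siRNA, against 4.39, 4.35 and 5.33 RPKM with NT siRNA (−0.58 ± 0.08). Ift22, a component of the outward transport particle, had 8.23, 7.75 and 7.60 RPKM with H2AZ siRNA, against 11.6, 12.9 and 10.4 RPKM with NT siRNA (−0.51 ± 0.09). In none of these 3 did the groups overlap. Ift57 fell by −0.42, and these 4 calls held without each WT library. Ift81, Wdr19, Ift122, Ift52, Tmem67 and Ift46 fell by between −0.39 and −0.18 on the log2 scale. The number of falls was 4 without WT H2AZ siRNA replicate 2, 5 without WT NT siRNA replicate 1 and 6 without WT H2AZ siRNA replicate 1 or 3, and 6 under centring. Gas1, a Hedgehog co-receptor, had 12.4, 14.7 and 14.7 RPKM with H2AZ siRNA, against 27.7, 20.2 and 21.9 RPKM with NT siRNA, a fall of −0.69 ± 0.13, and Smo, the signal transducer that enters the cilium, had 19.08, 18.5 and 18.9 RPKM with H2AZ siRNA, against 23.5, 23.7 and 23.9 RPKM with NT siRNA, a fall of −0.32 ± 0.06. The promoter motif GTTGCC, or GGCAAC on the other strand, is a core of the RFX factors' binding sequence. It occurred in the windows of 14.1% of all genes, of 12 of 23 tested cilium genes with a window (52.2%), and of 2 of the 6 such genes that fell.

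Interferon-stimulated genes also had lower values. These genes are switched on by interferon through STAT and IRF factors and restrict viruses. Of 44 tested 9 fell and none rose (20.5% against 10.4%), the median was −0.18, and 6 of the falls held without each WT library. The number that fell lay between 6 and 13 in those fits, and was 6 without WT NT siRNA replicate 1 and 6 under centring. Summed RPKM over the list was 516, 534 and 515 with H2AZ siRNA and 683, 564 and 602 with NT siRNA, with the highest value in WT NT siRNA replicate 1. Ifit3, which binds RNA-sensing adapters, had 8.38, 8.80 and 8.62 RPKM with H2AZ siRNA, against 18.3, 13.6 and 12.6 RPKM with NT siRNA. Its NT siRNA replicate 1 was the highest, and the lowest NT siRNA library still lay above every H2AZ siRNA library (−0.70 ± 0.12, limma adjusted p = 0.0025). Ifit1, which binds foreign RNA ends, had 12.7, 14.1 and 14.2 RPKM with H2AZ siRNA, against 23.9, 18.5 and 19.11 RPKM with NT siRNA (−0.55 ± 0.11). Iigp1, a GTPase gene against intracellular parasites, was low, at 0.851, 0.953 and 0.953 RPKM in WT H2AZ siRNA libraries and 2.45, 1.78 and 1.89 RPKM in WT NT siRNA libraries (−0.66 ± 0.08). Within WT, Iigp1 reached the 1 RPKM limit for testing only with NT siRNA, the group where it was higher. It counts among the 9 falls and among the 6 that held. Ifit3b (−0.61), Cmpk2 (−0.51) and Mx2 (−0.35) fell too. Ifit3 and Ifit3b are near copies, so their values are uncertain. Isg15, a ubiquitin-like modifier, fell by −0.43, a call that ended when any 1 of the WT libraries was left out. Irf7 (−0.12, adjusted p = 0.44), a transcription factor of the pathway, did not pass.

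The sequence GAAANNGAAA, or TTTCNNTTTC on the other strand, is the core of the element that interferon factors bind. At least 1 match lay in the windows of 3.99% of all genes, of 18 of 35 tested interferon-stimulated genes with a window (51.4%), and of 5 of 7 such genes that fell. Stretches of 30 bases around the first match of 3 fallen genes, from the RefSeq windows, show the motif in capitals. They lie at chr19:34583363-34583392 on the plus strand, at chr19:34640775-34640804 on the plus strand and at chr4:156200877-156200906 on the minus strand, in the order printed.
Ifit3: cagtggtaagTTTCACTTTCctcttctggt
Ifit1: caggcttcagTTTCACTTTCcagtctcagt
Isg15: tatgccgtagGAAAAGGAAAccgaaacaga

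Inflammatory and immune genes outside that list moved both ways. Cxcl10, a chemokine that draws T cells, had 6.29, 5.25 and 5.52 RPKM with H2AZ siRNA, against 10.4, 10.1 and 10.7 RPKM with NT siRNA, a fall of −0.77 ± 0.07 (limma adjusted p = 0.00011) with no overlap. Plau, which encodes an activator of plasminogen, had 22.3, 21.9 and 22.5 RPKM with H2AZ siRNA, against 14.5, 14.9 and 14.8 RPKM with NT siRNA (0.56 ± 0.04). Plaur, the receptor of that activator, rose by 0.50, a call that ended without WT NT siRNA replicate 1 (log2 fold change 0.42, adjusted p = 0.052). In the list of inflammatory and senescence-secreted factors 5 of 26 rose and 2 fell (19.23% against 4.88% of all genes, and 7.69% against 10.4%). Under centring 9 of the 26 rose, where 1306 of all 12668 genes did. Of 20 genes for antigen presentation by MHC class I 1 fell (5% lower against 10.4% of all genes, and 0 higher against 4.88%). Without WT NT siRNA replicate 2, 2 fell. The 1 fall was Pdia3, a disulfide isomerase of the peptide-loading complex, with 144, 140.3 and 138 RPKM with H2AZ siRNA, against 224, 203 and 205 RPKM with NT siRNA (−0.58 ± 0.05). Of the macrophage markers 2 of 12 were tested and Cd14 rose by 0.29, a call that ended when any 1 of the WT libraries was left out. Ptprc, Csf1r and Adgre1, which define leukocytes and macrophages, did not exceed 0.125 RPKM.

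Matrix genes split between rises and falls. In the collagen and matrix list 7 of 41 rose and 8 fell (17.1% against 4.88% of all genes, and 19.5% against 10.4%), with a median of −0.03. Under centring 11 rose and 5 fell, and with median-ratio totals 11 rose and 9 fell. Col8a1, a short-chain collagen, had 35.5, 33.7 and 37.9 RPKM with H2AZ siRNA, against 29.0, 24.2 and 24.4 RPKM with NT siRNA (0.45 ± 0.08). Col6a3, of the beaded collagen filaments, had 33.8, 35.0 and 35.1 RPKM with H2AZ siRNA, against 26.2, 24.0 and 24.6 RPKM with NT siRNA (0.46 ± 0.09). Sparc (0.27), a collagen-binding glycoprotein, Col18a1 (0.34), Loxl3 (0.35) and Fbln2 (0.25) rose as well, and these 6 calls held without each WT library. Efemp2, needed for elastic fibres, fell by −0.27, the 1 fall that held in all those fits. The number of falls was 1 without WT H2AZ siRNA replicate 1, 2 without WT NT siRNA replicate 1 and 3 without WT H2AZ siRNA replicate 2 or 3 or WT NT siRNA replicate 3. Col1a1 lay between 73.9 and 79.9 RPKM with H2AZ siRNA and between 74.3 and 84.9 RPKM with NT siRNA, and was not called. In the basement membrane list 4 of 17 rose and none fell (23.5% higher against 4.88% of all genes, and 0 lower against 10.4%). Lamb1, a laminin chain, had 31.6, 31.7 and 31.8 RPKM with H2AZ siRNA, against 24.1, 23.3 and 22.5 RPKM with NT siRNA (0.43 ± 0.05, limma adjusted p = 0.00033), Lamc1 rose by 0.33 and Npnt, an integrin ligand, by 0.52. Nid1, which links laminin to collagen, rose by 0.34, a call that ended without WT H2AZ siRNA replicate 1, 2 or 3 or WT NT siRNA replicate 2 or 3. Of 21 tested integrins and adhesion receptors 2 rose and 2 fell (9.52% each way, against 4.88% and 10.4% of all genes). Itga5, the fibronectin integrin chain, had 23.6, 22.2 and 22.3 RPKM with H2AZ siRNA, against 15.3, 16.8 and 16.5 RPKM with NT siRNA (0.46 ± 0.05), and Cd44, which binds hyaluronan, had 59.4, 58.8 and 58.2 RPKM with H2AZ siRNA, against 39.9, 49.3 and 45.7 RPKM with NT siRNA (0.38 ± 0.08). Sdc4 fell, a call that held without each WT library. Itga11 fell too, a call that ended without WT H2AZ siRNA replicate 1 or 2 or WT NT siRNA replicate 1.

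Signalling genes changed on both sides of the BMP pathway. Of 41 tested genes for TGF-beta and BMP signalling, 6 rose and 7 fell (14.6% against 4.88% of all genes, and 17.1% against 10.4%). Under centring 10 rose and 6 fell, and with median-ratio totals 9 rose and 7 fell. Among secreted inhibitors, Grem1, a BMP antagonist, had 11.7, 12.3 and 12.9 RPKM with H2AZ siRNA, against 9.42, 7.48 and 6.76 RPKM with NT siRNA (0.60 ± 0.12). Fst, which binds activins, rose by 0.41. Bambi, a decoy receptor, rose by 0.47. Among ligands, Gdf6 fell by −0.40 and Bmp4 by −0.39, a call that ended without WT H2AZ siRNA replicate 1, 2 or 3 or WT NT siRNA replicate 1 or 2. Among targets, Id3 had 16.9, 16.2 and 17.2 RPKM with H2AZ siRNA, against 24.7, 21.97 and 22.4 RPKM with NT siRNA (−0.43 ± 0.05), and Id4 rose by 0.40. The number of falls was 3 without WT H2AZ siRNA replicate 1, 2 or 3 or WT NT siRNA replicate 1 and 4 without WT NT siRNA replicate 2. In the Wnt list 2 of 19 fell and none rose (10.5% lower against 10.4% of all genes, and 0 higher against 4.88%). Sfrp2, a secreted modulator, had 2.11, 2.16 and 1.64 RPKM with H2AZ siRNA, against 4.56, 2.99 and 3.35 RPKM with NT siRNA (−0.63 ± 0.12), and the receptor Fzd2 fell by −0.31. In the list of growth factor genes, Pdgfa rose by 0.39 and Pdgfb fell by −0.40. Of the immediate early genes 4 of 27 rose and 1 fell (14.8% against 4.88% of all genes, and 3.70% against 10.4%). Under centring 7 of the 27 rose, where 1306 of all 12668 genes did. Klf4, a transcription factor gene, had 2.94, 3.36 and 3.39 RPKM with H2AZ siRNA, against 2.29, 1.95 and 2.004 RPKM with NT siRNA (0.46 ± 0.07), Fosl1, an AP-1 subunit, rose by 0.43, and Dusp1, a MAP kinase phosphatase, fell by −0.37.

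Respiratory chain genes had falls and no rises, and antioxidant and stress genes moved both ways. Of 35 nuclear genes for the respiratory chain 9 fell and none rose (25.7% against 10.4%), and 6 of the falls held without each WT library in turn. Under centring 3 of the 35 were called lower, where 878 of all 12668 genes were. Cox5a, a subunit of cytochrome oxidase, had 55.7, 54.4 and 50.3 RPKM with H2AZ siRNA, against 67.3, 86.2 and 82.1 RPKM with NT siRNA (−0.54 ± 0.08, limma adjusted p = 0.0011). Uqcrc2, of the cytochrome bc1 complex, fell by −0.35. None of the 13 genes encoded by mitochondrial DNA was called, with a median of −0.12. Of 27 targets of NRF2 and antioxidant genes 5 rose and 5 fell (18.5% each way, against 4.88% and 10.4%), with 5 rises and 2 falls under centring and 3 of each without both NT siRNA libraries numbered 1. Sod1, which removes superoxide in the cytosol, had 190.3, 190.0 and 185 RPKM with H2AZ siRNA, against 257, 261 and 251 RPKM with NT siRNA (−0.44 ± 0.04), and Sod2, its mitochondrial counterpart, fell by −0.34. Hmox1, which breaks down haem, had 46.9, 40.9 and 40.1 RPKM with H2AZ siRNA, against 32.0, 29.0 and 31.8 RPKM with NT siRNA (0.45 ± 0.06), and Nqo1 rose by 0.29. Acly, which makes acetyl-CoA for lipids and histone acetylation, had 35.0, 36.9 and 36.2 RPKM with H2AZ siRNA, against 50.5, 50.1 and 48.3 RPKM with NT siRNA (−0.45 ± 0.04, adjusted p = 3.6e-05). In the glycolysis and hypoxia list 3 of 31 rose and 2 fell (9.68% against 4.88% of all genes, and 6.45% against 10.4%). Slc2a1, a glucose transporter, rose by 0.28 and Pfkfb4 fell, and only these calls of that list held without each WT library. In the list of unfolded-protein and amino-acid stress 5 of 31 rose and 3 fell (16.1% against 4.88% of all genes, and 9.68% against 10.4%). With median-ratio totals 9 of the 31 rose, where 1135 of all 12668 genes did. Among the falls, Nupr1, a stress-induced chromatin protein, had 17.0, 15.5 and 16.7 RPKM with H2AZ siRNA, against 27.3, 21.3 and 23.9 RPKM with NT siRNA (−0.52 ± 0.07). Of 18 heat shock chaperone genes 3 fell and none rose (16.7% lower against 10.4% of all genes, and 0 higher against 4.88%). Under centring 2 of the 18 rose, where 1306 of all 12668 genes did. Hspa1a (−0.33) and Hspa1b (−0.28), near-identical heat shock genes, and Hspb8 (−0.35) fell.

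Ribosomal and lysosomal genes leaned upwards. Of 55 genes for cytosolic ribosomal proteins 11 rose and 2 fell (20% against 4.88% of all genes, and 3.64% against 10.4%), and 51 had a positive log2 fold change, with a median of 0.11. Rpl28 had 395, 412 and 402 RPKM with H2AZ siRNA, against 322, 354 and 355 RPKM with NT siRNA (0.23 ± 0.05) and Rpl8 had 751, 780.1 and 757 RPKM with H2AZ siRNA, against 885, 991 and 963 RPKM with NT siRNA (−0.31 ± 0.06). The Rpl8 call ended under centring (adjusted p = 0.068). The number of rises was 1 without WT H2AZ siRNA replicate 1 or 3, 2 without WT NT siRNA replicate 1, 3 without WT H2AZ siRNA replicate 2, 6 without WT NT siRNA replicate 2 and 7 without WT NT siRNA replicate 3. In the lysosome list 6 of 27 rose and 3 fell (22.2% against 4.88% of all genes, and 11.1% against 10.4%). Under centring 9 rose and none fell, where 1306 of all 12668 genes rose and 878 fell. Ctsd, an aspartic protease, had 309.9, 314 and 314 RPKM with H2AZ siRNA, against 259.9, 239 and 247 RPKM with NT siRNA (0.33 ± 0.04), and Lamp1, a membrane protein of the lysosome, had 385, 384 and 392 RPKM with H2AZ siRNA, against 318, 306 and 305 RPKM with NT siRNA (0.32 ± 0.04). Both were higher in every H2AZ siRNA library. The number of falls in that list was 1 without WT H2AZ siRNA replicate 1 or 3 or WT NT siRNA replicate 1 or 3.

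Developmental genes were called lower at about the share of all genes. Of 44 transcription factor genes 1 rose and 4 fell (2.27% against 4.88% of all genes, and 9.09% against 10.4%). All 5 calls held without each WT library in turn. Under centring 4 of the 44 rose, where 1306 of all 12668 genes did. Scx, which specifies tendon cells, had 21.9, 20.8 and 20.2 RPKM with H2AZ siRNA, against 29.6, 27.7 and 29.2 RPKM with NT siRNA (−0.44 ± 0.05, limma adjusted p = 0.00027). Irx1 had 3.39, 3.81 and 3.39 RPKM with H2AZ siRNA, against 5.61, 5.23 and 4.95 RPKM with NT siRNA (−0.47 ± 0.06), Msx1, at 0.379, 0.336 and 0.384 RPKM in WT H2AZ siRNA libraries and 0.933, 1.06 and 0.830 RPKM in WT NT siRNA libraries, fell by −0.51, and Foxf1 fell by −0.50. Msx1 reached the 1 RPKM limit for testing in only 1 WT library, of NT siRNA, and passed it through KO libraries. Tbx20, a T-box factor, rose by 0.31. Of 11 Hox genes tested 2 fell (18.2% lower against 10.4% of all genes, and 0 higher against 4.88%). No Hox call was made without WT H2AZ siRNA replicate 1 or 3 or without WT NT siRNA replicate 1 or 3. Among markers of other tissues calls went both ways. Of 4 tested epithelial markers 1 rose and 1 fell (25% each way), and of 12 mesothelial markers 1 rose and 1 fell (8.33% each way). Of 7 adipocyte markers 1 rose and 2 fell (14.3% and 28.6%). The shares of all genes were 4.88% higher and 10.4% lower. Krt19, in the epithelial and mesothelial lists, rose by 0.33, a call that ended without WT H2AZ siRNA replicate 1, 2 or 3 or WT NT siRNA replicate 1 or 3, and Plin2, a lipid-droplet gene, rose by 0.26. Krt7 had 0.543, 0.391 and 0.373 RPKM with H2AZ siRNA, against 0.976, 1.12 and 0.9999 RPKM with NT siRNA and fell by −0.50, Msln, of the mesothelium, fell by −0.40, and Plin4, also of lipid droplets, had 1.67, 1.56 and 1.58 RPKM with H2AZ siRNA, against 4.28, 3.12 and 4.10 RPKM with NT siRNA and fell by −0.88 ± 0.12. Krt7, like Msx1, reached 1 RPKM in only 1 WT library, of NT siRNA, and was tested through KO libraries.

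The same siRNA in KO fibroblasts shows how far the WT response recurs in libraries that share no control with it. KO cultures differ from WT ones in more than the knockout. Xist, the RNA of the inactive X chromosome, lay between 4.12 and 6.33 RPKM in the 6 WT libraries and at no more than 0.00144 RPKM in the KO libraries, while the Y-linked Ddx3y was at 0 in all WT libraries and between 3.08 and 6.73 RPKM in KO. Genotype, sex and origin cannot be told apart. In KO the H2AZ siRNA raised 831 genes (6.56%) and lowered 2404 (19.0%). Of the 618 genes that rose in WT, 589 had a positive log2 fold change in KO and 326 were called there, which is 52.8% of the WT rises and 39.2% of the KO rises. Of the 1315 that fell in WT, 1291 had a negative one and 1049 were called, 79.8% of the WT falls and 43.6% of the KO falls. None was called in the opposite direction. Calls in WT and KO come from the same fit with a shared estimate of spread, so they are not independent. Same-numbered KO libraries deviated together (correlations of 0.156, 0.144 and 0.270), and with the replicate number as a block in KO, an alternative chosen after seeing the data, 1052 genes rose and 2705 fell there, of which 358 and 1083 had moved the same way in WT, and 1 gene that fell in WT rose in KO. The median KO log2 fold change was 0.19 for the genes that rose in WT and −0.32 for those that fell. Over all tested genes 75.2% had the same sign, and the log2 fold changes correlated at 0.67 across genes, which share libraries and are not independent.

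Named genes show the same range side by side. Cdkn1a rose by 0.95 ± 0.05 in WT and 1.05 ± 0.05 in KO, and Ywhae fell by −1.17 ± 0.05 in WT and −1.29 ± 0.05 in KO. The p53 list had 19 rises and 1 fall of 32 in WT, and 22 rises and 1 fall in KO. The cilium list had 10 falls in WT and 12 in KO, and the replication-dependent histones 16 in WT and 2 in KO. The interferon list had 9 falls in WT and 17 in KO, of which 4 were the same genes. Over all genes 4.88% rose and 10.4% fell in WT, and 6.56% rose and 19.0% fell in KO. The histone list had a median log2 fold change of −0.20 in WT and −0.12 in KO, and 1 fall in WT under centring. No gene of the p53, cilium, histone or interferon lists passed the test of the difference between WT and KO. Cxcl10 had a log2 fold change of −0.77 in WT and −0.13 in KO (limma adjusted p = 0.23 in KO), but the difference of −0.64 ± 0.10 did not pass (adjusted p = 0.14). Mt1 had 0.54 in WT and 0.12 in KO (difference 0.42 ± 0.06, adjusted p = 0.084).

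When the difference between the WT and KO responses was tested for every gene, 1 of 12668 passed (0.00789%), and 1095 had an unadjusted p under 0.05. That gene was H2afz. Its KO libraries had 26.9, 26.4 and 30.4 RPKM with H2AZ siRNA and 199, 198 and 184 RPKM with NT siRNA, so the KO log2 fold change was −2.75 ± 0.05, and the WT response minus the KO response was −0.72 ± 0.08 (limma adjusted p = 0.012). The call ended without WT H2AZ siRNA replicate 1 (0.056) or replicate 2 (0.068), and without WT NT siRNA replicate 1 (0.063) or replicate 2 (0.057), these being adjusted p-values. Gm8203 had a difference of −0.71 ± 0.09 (adjusted p = 0.052). With the replicate block in KO 2 genes passed, both lower in WT, and H2afz was one of them (adjusted p = 0.040). A limma-voom fit on the recovered reads with median-ratio totals called 5 genes with a higher and 13 with a lower response in WT.

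**Figure D5:**
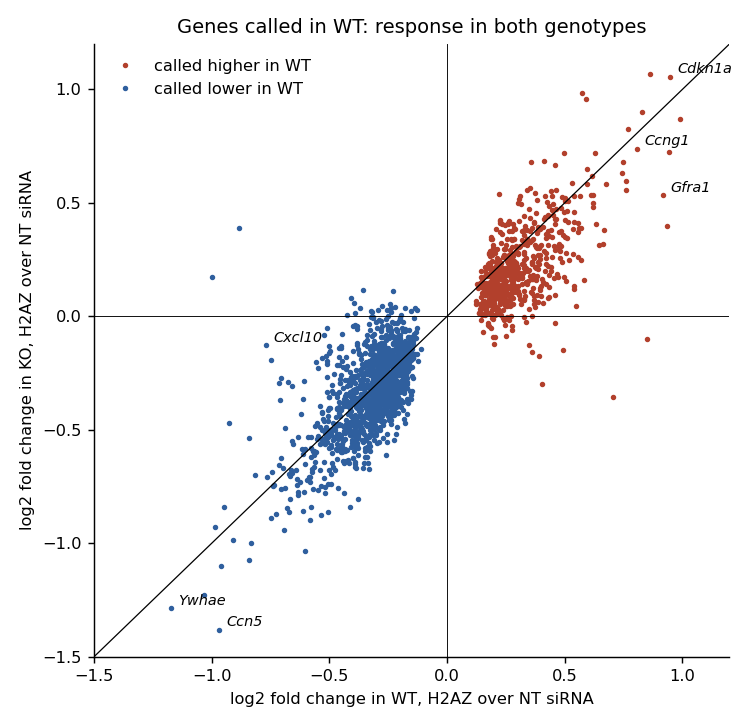
Log2 fold change with H2AZ siRNA over NT siRNA in KO (y axis) against that in WT (x axis) for the genes called in WT, red for higher and blue for lower in WT; 5 genes, H2afz and H2afv among them, lie outside the axes. Of the red points 589 of 618 lie above 0 in KO, and of the blue points 1291 of 1315 lie below.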

How the data were processed

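The authors deposited 1 table of RPKM per gene for the 12 siRNA libraries. Per the submitters' processing notes, the tools were deepTools, Bowtie2 and STAR, and the genome build was mm10. The sources used here name no versions, no counting program or its strand setting, no gene annotation, and no total to which RPKM was scaled. Of 43432 entries 42462 (97.8%) carry a symbol, and 20 symbols occur more than once. Whole reads were recovered from the steps of the deposited RPKM values: all 32935 entries above 0 (100%) came out whole within 0.01.

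The members, gene lists and tests were chosen with earlier results of these data known. Genes with at least 1 RPKM in at least 3 columns were fitted on log2(RPKM + 1), computed from the deposited values, by limma 3.58.1 with an intensity trend (R 4.3.3), with 4 groups in 1 fit. The pseudocount of 1 RPKM lessens the fold changes of low genes. Calls have a Benjamini-Hochberg adjusted p under 0.05 over all 12668 genes. Errors on log2 fold changes are standard errors. The procedure was also run on simulated data. Those held no built-in shift of scaling and no outlying library, so they do not bear on either limit. Counts recovered from the deposited RPKM entered only the limma-voom alternatives.

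Named genes are H2afz, H2afv and Anp32e, up to 15 higher and 15 lower called genes with the largest change (predicted genes left out) whose groups did not overlap and whose higher group reached a mean of 5 RPKM or more, up to 3 called members per list and direction, and the H2A.Z lists. The other list members, the genes with a p53 site, Gm8203 and Gm26623 were chosen after their values were seen. Deviations of same-numbered libraries correlated at −0.003, 0.013 and −0.089 in WT, so numbers did not pair them, and at 0.156, 0.144 and 0.270 in KO, where a blocked fit was added. Positions and promoter windows are from RefSeq GRCm38.p6. Positions were matched for 12154 genes (95.9%), and windows for 8505 (67.1%). Python 3.11.15, numpy 2.4.6, pandas 2.3.3 and matplotlib 3.10.9 served for the other steps. Some genes, and the other samples of the series, are not reported here.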

Additional observations from a re-analysis of the deposited data

Results flagged for a closer look

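The response of H2afz to H2AZ siRNA differed between genotypes by a test of the difference itself. The WT response minus the KO response was −0.72 on the log2 scale (limma adjusted p = 0.012). Its level with H2AZ siRNA was 17.5, 16.6 and 17.4 RPKM in WT and 26.9, 26.4 and 30.4 RPKM in KO, and with NT siRNA it was 203, 199 and 203 RPKM in WT and 199, 198 and 184 RPKM in KO. The H2afz level left with H2AZ siRNA was thus lower in WT than in KO, and its part in other differences between the responses was not tested. The difference lay between −0.79 and −0.66 under the alternatives. It did not pass with both NT siRNA libraries numbered 1 left out (adjusted p = 0.13), with no filter on low values (adjusted p = 0.068), without WT H2AZ siRNA replicate 1 or 2 (adjusted p = 0.056 and 0.068) or without WT NT siRNA replicate 1 or 2 (adjusted p = 0.063 and 0.057).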

How the results depend on the processing

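No named gene that was called reversed its sign under the alternatives run. The balance of calls did turn: all genes had 1306 higher and 878 lower with median centring, and the cell-cycle brakes 4 higher and 1 lower. The number of genes higher was 1135 with limma-voom and median-ratio totals, and 329 to 681 when 1 of the 12 libraries was left out; the number lower was 778 to 1422 in those fits. Limma-voom on the recovered reads called 623 higher and 1391 lower. A fit on the 6 WT libraries alone, without the KO libraries, called 550 higher and 1172 lower. Higher by 2-fold or more were 2 genes with the 10 highest genes left out of the totals, 4 without both NT siRNA libraries numbered 1, 1 with a filter at 5 RPKM, 11 with limma-voom, 14 with limma-voom and median-ratio totals, 2 with centring, 12 with a pseudocount of 0.1 and 0 to 4 without 1 library. Lower by 2-fold or more were 35, 31 and 29 with limma-voom, with median-ratio totals and with a pseudocount of 0.1, and 6 to 12 without 1 library. A higher response in WT than in KO was called for 5 genes with limma-voom and median-ratio totals and 0 to 1 without 1 library. A lower response was called for 3 genes with the 10 highest genes left out, 0 without both NT siRNA libraries numbered 1, 2 with a filter at 5 RPKM, 2 with limma-voom, 13 with median-ratio totals, 3 with centring, 0 with no filter and 0 to 2 without 1 library. The replicate block gave 2 lower responses in WT, 721 genes higher and 1543 lower, and the block in KO alone gave 2, 794 and 1535. With no filter, 32931 entries were tested and 435 were higher and 983 lower, so more tests entered the adjustment. For the other changes of count the cause was not tested. Of 198 named genes, centring ended 25 calls, leaving out both NT libraries numbered 1 ended 26, no filter 40, and leaving out 1 WT library 28 to 49. Depth limits low genes: 1 read per kb was worth up to 0.0313 RPKM in WT.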

Other observations

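Abundant genes were called higher more often than scarce ones. With the genes cut into 5 equal groups by mean RPKM, from low to high, 1.70, 4.15, 4.50, 6.001 and 8.05% of genes were called higher and 8.25, 10.9, 12.5, 11.8 and 8.37% lower, and the median log2 fold change was −0.05, −0.06, −0.04, −0.03 and 0.01. With the genes cut into 5 equal groups by their length on the chromosome, 15.96% of genes in the next-to-shortest group were called lower, against 7.28 to 11.9% in the other groups. Of 10280 protein-coding genes 534 were higher and 1241 lower, with a median of −0.04, and of 1220 pseudogenes 61 were higher and 41 lower, with a median of 0.04. The share called lower ran from 4.86% on chromosome 18 to 14.9% on chromosome 19. On the X chromosome 3.69% were higher and 5.64% lower. These groups of genes were compared by description only.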
